A study of Mus musculus with 22 samples.

Results

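The comparison described here set 3 RNA-seq libraries of mouse duodenal organoids exposed to direct cold atmospheric plasma (CAP) for 24 h against 3 libraries of the same organoid lines exposed for 30 min, 6 of the 22 libraries of the series. CAP is an ionised gas, here from a helium plasma jet, that brings reactive oxygen and nitrogen species into nearby liquid. In direct application the jet was held over the culture wells 1 day after seeding, and the treated medium was replaced 30 min or 24 h later. Organoids were wild type, grown from the duodenal epithelium of adult mice aged 2 months, and each line came from 1 mouse. Line CD1 was at passage 12 and line WT2 at passage 14, both from males, and line 2 was at passage 4, from a female. The study's methods list a lower passage for line 2 than its labels do. Both groups carried the same genotype and the same plasma treatment, so they differ in the length of exposure. The study's design drawing ends all cultures on the same day, whereas its text speaks of genes measured shortly after the 30 min treatment, so length of exposure and time between treatment and collection cannot be told apart. No untreated library entered the comparison. The 4 untreated libraries of the series (lines CD1, WT2, 2 and 1) are given as ranges for orientation, with no test.

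The intestinal epithelium is renewed from Lgr5+ stem cells at the crypt base, which depend on Wnt signals. Their progeny divide and become absorptive enterocytes or the secretory Paneth, goblet, enteroendocrine and tuft cells. After injury the epithelium is known to switch off stem cell genes for a time and to express a set of genes also found in the fetal gut, under the control of YAP among other factors. Cells that sense oxidants, amino acid shortage or misfolded protein can also slow translation and make the transcription factor ATF4, which drives genes of amino acid supply and redox balance.

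Each library's deposited values add up to just over 20 M (mega), so a value gives a gene's reads per 20 M reads counted, and it is not divided by gene length. The spacing of the low values put the reads counted at 21.1 to 28.65 M in the 30 min group and 22.05 to 23.2 M in the 24 h group. The labels call the cells stem cells, but genes of differentiated cells were abundant too, with the Paneth cell lysozyme Lyz1 between 6068 and 18199 and the goblet cell mucin Muc2 between 5832 and 21096. All 8 epithelial markers were tested. Their summed value was between 127743 and 149995 at 30 min and between 159213 and 184116 at 24 h. The summed value of 10 fibroblast and smooth muscle markers was 30 to 38 against 27 to 43, with Dcn and Lum at 0 in all 6 libraries, that of 5 endothelial markers was 45 to 74 against 47 to 76, with Kdr at 0, and that of 5 enteric neuron and glia markers was 22 to 46 against 27 to 45. The summed value of 8 immune markers was 847 to 1278 at 30 min and 1162 to 1770 at 24 h. Of these other markers, 1 of 10 for fibroblasts and smooth muscle, 3 of 5 endothelial, 2 of 5 neuron and glia and 4 of 8 immune were tested. The rest were too low to be tested. No tested marker of these 5 cell types was past the threshold, and the part of immune cells in the results was not tested.

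Values were compared within each line, as log2(value + 1), with limma's moderated test and the line as a block. Of 17668 genes tested, 103 (0.583%) were lower and 97 (0.549%) higher at 24 h, 200 (1.13%) in either direction, at an adjusted p (Benjamini-Hochberg over all genes tested) under 0.01 with a change of 1 or more on the log2 scale. These genes are called lower or higher here. With an adjusted p under 0.05 and no minimum fold change, a wider rule, 811 genes (4.59%) were lower and 628 (3.55%) higher, 8.14% in all. The direction of each of the 200 genes was the same in all 3 lines. A test paired over these same lines favours such genes, so this is no separate support. The values of the 24 h group lay apart from those of the 30 min group in 85 of the 103 lower and 43 of the 97 higher genes, where 20.6% of all genes tested lay apart as lower and 7.33% as higher (28% in all). The remaining 54 higher genes overlapped between the groups while rising within every line. Without the line as a block 0 genes were called by limma, with 3774 at an unadjusted p under 0.05, so the calls rest on the pairing of libraries by line. With quantile normalization 95 genes were lower and 144 higher. Leaving out a line gave 725 calls without CD1, 374 without WT2 and 537 without line 2. Such a fit leaves 1 residual degree of freedom and rests on the prior. Counts without a line, here and for the lists below, therefore do not measure how well a result holds.

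**Figure D1:**
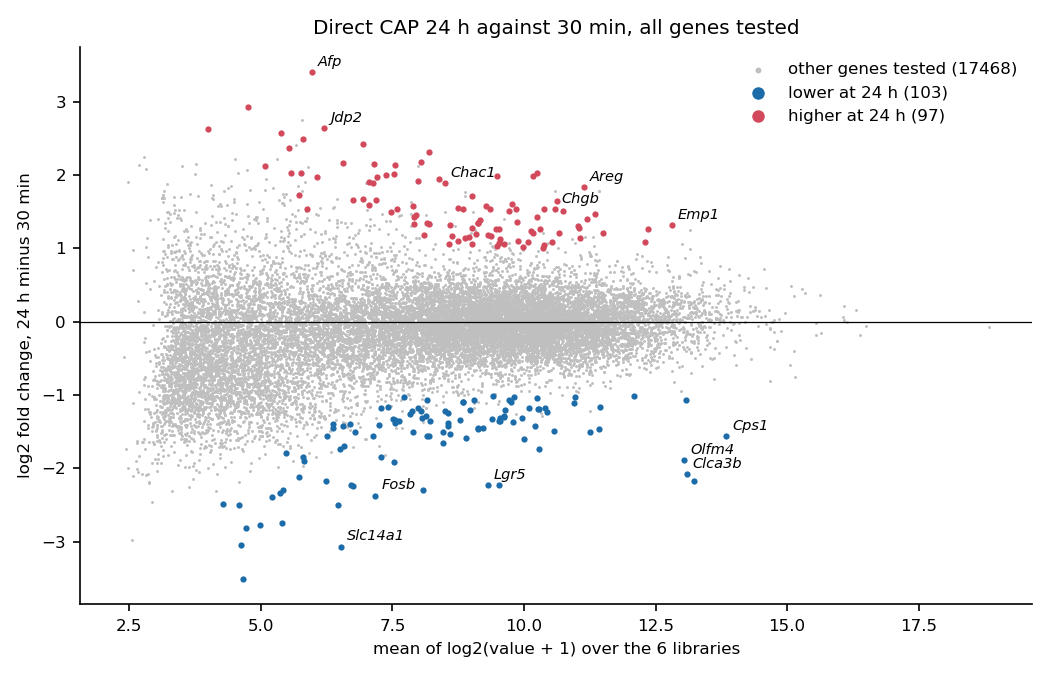
Log2 fold change of each of the 17668 genes tested (vertical axis, 24 h minus 30 min, fitted over 3 lines) against the mean of log2(value + 1) over the 6 libraries (horizontal axis). The 103 genes called lower are blue and the 97 called higher are red, and Afp, Jdp2, Slc14a1, Lgr5, Olfm4 and others are named.

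Genes of crypt stem cells fell. Of 22 tested stem cell and Wnt target genes, 6 were called lower and 0 higher, where 0.583% and 0.549% of all genes were, and by the wider rule 12 were lower and 1 was higher. The median log2 fold change of the list was -0.70, against -0.09 for all genes tested. Lgr5, the receptor that marks crypt base stem cells, had values of 1591 (CD1), 2171 (WT2) and 747 (line 2) at 30 min and of 354, 548 and 128 at 24 h. Every 24 h value was below every 30 min value, and the untreated libraries held 1281 to 2822. The log2 fold change was -2.23 ± 0.14 (SE from limma's moderated variance, 3 pairs of libraries), a 4.69-fold fall (limma, adjusted p = 0.000964). Olfm4, a secreted glycoprotein of the same cells, fell from 18005, 18466 and 12679 to 4979, 5417 and 3058, with 20867 to 25431 in the untreated libraries (log2 fold change -1.89 ± 0.12). Axin2, a direct target and inhibitor of Wnt signalling, had 4430, 5190 and 3061 at 30 min and 1644, 2343 and 798 at 24 h, and its untreated values were 4158 to 5951 (2.84-fold lower, adjusted p = 0.00231). For Lgr5 and Axin2, line 2 was the lowest of the 3 lines at both times. Smoc2 (-1.46 ± 0.12), Adra2a (-1.25 ± 0.14) and Rgmb (-1.24 ± 0.11) were the other stem cell genes called lower. In the fit of all 18 treated libraries, 4 members of the list were called, and Olfm4 (adjusted p = 0.0248) and Axin2 (adjusted p = 0.0121) were not. Ascl2, a transcription factor of the stem cell state, had a log2 fold change of -0.71 and an adjusted p of 0.0312, past the wider rule alone. Prom1, which also marks other crypt cells, went the opposite way by the wider rule, with 2449, 2672 and 3997 at 30 min and 4722, 3797 and 5998 at 24 h (0.68 ± 0.13, adjusted p = 0.0188).

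**Figure D2:**
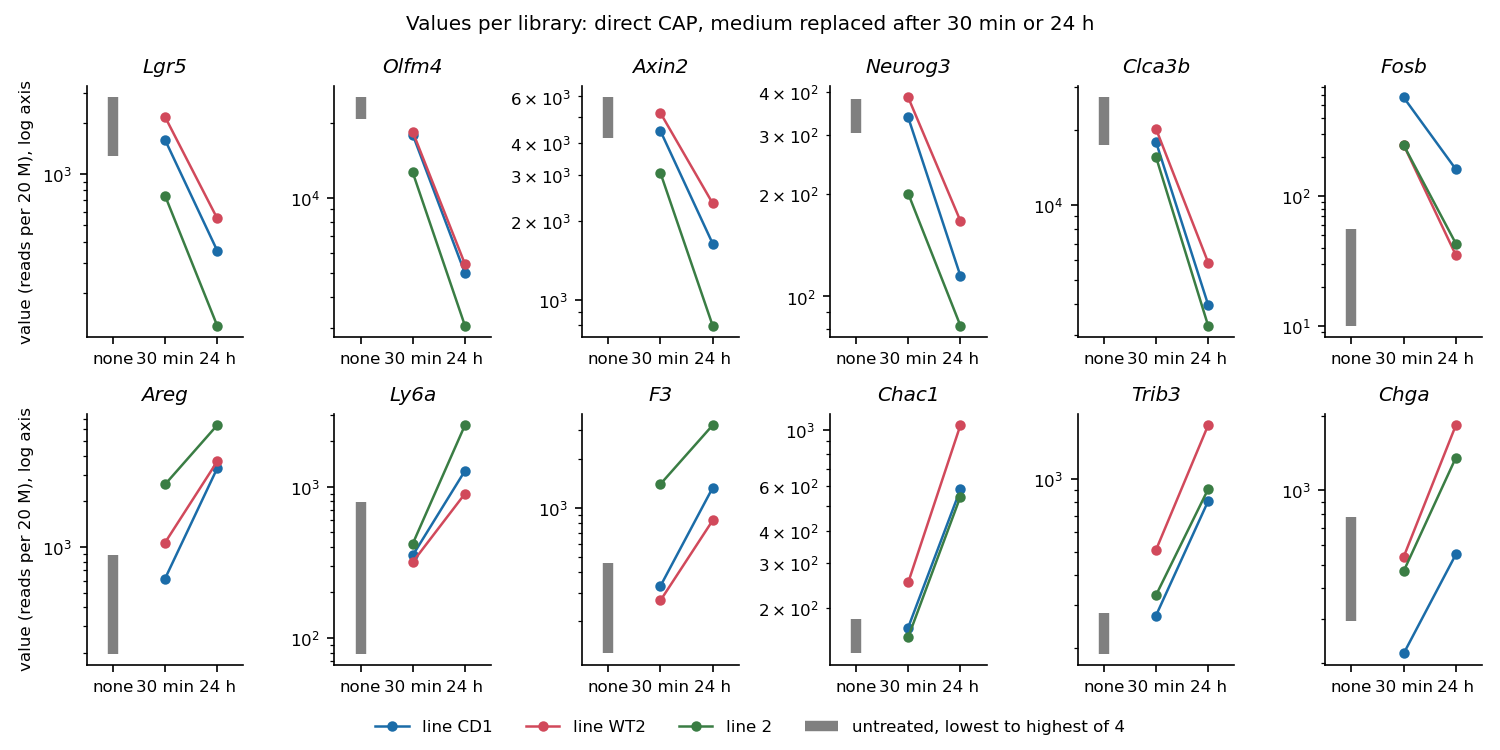
Values of 12 genes (vertical axes, reads per 20 M, log scale) in the libraries of lines CD1, WT2 and 2 at 30 min and 24 h, each line joined, with a grey bar from the lowest to the highest of the 4 untreated libraries. The upper row falls and the lower row rises in every line, and only Fosb has 30 min values above the whole untreated range that turn back towards it at 24 h.

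Genes of cell division held no call. None of 43 DNA replication genes was called, but 13 were lower and 0 higher by the wider rule, and 40 of the 43 had a negative log2 fold change (median -0.35). Over all 17668 genes tested 4.59% were lower and 3.55% higher by the wider rule, and 10499 had a negative log2 fold change. The largest change in the list was that of Pole, the catalytic subunit of a replicative DNA polymerase, at -0.75 ± 0.13 (adjusted p = 0.0158). Of 34 mitosis genes, 0 were called and 8 were lower by the wider rule (median -0.29). Mki67, a marker of cycling cells, had 11068, 10676 and 7830 at 30 min and 7798, 6920 and 4710 at 24 h, with 8402 to 11723 untreated (-0.62 ± 0.12, adjusted p = 0.0222). The groups did not overlap for Mki67. The medians of both lists differed between lines, at -0.62 for replication and -0.62 for mitosis in WT2 and -0.16 and -0.04 in line 2.

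Regeneration genes rose as a group. None of 22 tested genes of the fetal-like regeneration list was lower, 9 were called higher and 20 were higher by the wider rule, where 0.549% and 3.55% of all genes were, and the median log2 fold change was 1.38. Ly6a, the stem cell antigen Sca-1 that marks the repairing and fetal-like epithelium, had 352, 318 and 420 at 30 min and 1275, 900 and 2554 at 24 h, with 79 to 788 in the untreated libraries. All 3 values at 24 h lay above the highest untreated value. Its log2 fold change was 1.98 ± 0.20 (adjusted p = 0.00208). Areg, a ligand of the EGF receptor, rose from 617, 1067 and 2586 to 3308, 3671 and 6369, a 3.57-fold rise (adjusted p = 0.0024), with 198 to 882 untreated. Ptgs2, the inducible enzyme of prostaglandin synthesis, had 38, 19 and 114 at 30 min and 283, 83 and 338 at 24 h (2.16 ± 0.27). The 24 h value of WT2 for Ptgs2 was below the 30 min value of line 2, although the gene rose in each line. Anxa8 (1.92), Il33 (1.72), Il1rn (1.51), Anxa3 (1.47), Emp1 (1.31) and S100a6 (1.09) were the remaining calls. Clu, which marks revival stem cells of the injured crypt, had 4710, 4340 and 10178 against 16945, 10690 and 15427 (1.25 ± 0.21), with an adjusted p of 0.0139. The list held 13 calls without CD1, 16 without WT2 and 15 without line 2, in fits of fewer data that rest on the prior.

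The list of genes known as targets of the YAP coactivator, which also holds Yap1, Wwtr1, Tead1 and Tead4 themselves, was mixed. Of 17 tested, 3 were called higher and 0 lower, where 0.549% and 0.583% of all genes were. The wider rule found 7 higher and 2 lower (list median 0.62), where 3.55% and 4.59% of all genes were. Tead4 (0.97) and Wwtr1 (0.62) were among the 7 and Tead1 (-0.59) among the 2, while Yap1 (-0.37) passed neither rule. Without line 2 the calls were 5 higher and 1 lower. Nt5e, the ectoenzyme CD73, had 53, 63 and 202 at 30 min and 308, 322 and 603 at 24 h (2.14 ± 0.21). F3, tissue factor, which starts blood clotting, had 330, 269 and 1396 against 1325, 835 and 3213 (1.61 ± 0.16), with 127 to 460 untreated. Ctgf, a matricellular protein, had 300, 136 and 84 against 833, 274 and 240 (1.33 ± 0.17), with 30 to 190 untreated. The order of the lines thus differed between these 3 genes, with line 2 highest for Nt5e and F3 and lowest for Ctgf. Tead2, a DNA-binding partner of YAP that is not in the list and was chosen after its values were seen, fell from 282, 674 and 231 to 143, 227 and 96 (-1.27 ± 0.17, adjusted p = 0.00647).

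The immediate early genes, which cells transcribe within minutes of a stimulus, did not move together. Of 29 immediate early and AP-1 genes tested, 1 was called lower and 2 higher, and 4 were lower and 5 higher by the wider rule (median 0.11). Over all genes tested 0.583% were called lower and 0.549% higher, and 4.59% were lower and 3.55% higher by the wider rule. Fosb, an AP-1 subunit, had 577, 248 and 247 at 30 min and 161, 35 and 43 at 24 h, against 10 to 56 in the untreated libraries. It was 5.18-fold lower at 24 h (adjusted p = 0.00185). Fos, its better known relative, had 1786, 1077 and 1515 at 30 min and 1211, 733 and 1167 at 24 h, and the untreated libraries held 157 to 327 (-0.50 ± 0.11, adjusted p = 0.0352). Egr1, an early zinc finger factor, had 1246, 1102 and 1070 against 817, 674 and 490, with 275 to 389 untreated (-0.81 ± 0.14, adjusted p = 0.0133). All 6 treated libraries were above the untreated range for Fos and Egr1. Jdp2, a repressor that dimerises with Jun, went the other way, from 20, 34 and 34 to 156, 191 and 204, a 6.22-fold rise (adjusted p = 0.0013), with 6 to 25 untreated. Ier3, an early gene of the stress response, rose by 1.17 on the log2 scale (adjusted p = 0.00953). Without CD1 the log2 fold change of Ier3 was 0.92, under the threshold, and in the fit of all 18 treated libraries its adjusted p was 0.0128.

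The ATF4 integrated stress response genes moved in one direction. All 29 tested had a positive log2 fold change, 10 were called higher and 20 were higher by the wider rule, with 0 lower under either (median 0.58). Over all 17668 genes tested, 7169 had a positive log2 fold change, 0.549% were called higher and 3.55% were higher by the wider rule. Chac1, which degrades glutathione and is among the steepest ATF4 targets, had 167, 251 and 153 at 30 min and 583, 1042 and 546 at 24 h, with 132 to 180 untreated. The groups lay far apart, with a log2 fold change of 1.89 ± 0.14 (adjusted p = 0.000964). Trib3, a pseudokinase that limits ATF4 signalling, had 272, 507 and 330 against 807, 1659 and 904, with 190 to 278 untreated (1.57 ± 0.12). Slc7a3, an importer of cationic amino acids, had 10, 13 and 26 against 65, 59 and 87 (2.13 ± 0.30). Slc7a11, the cystine importer that feeds glutathione synthesis, had 1414, 1762 and 2746 against 4306, 4148 and 4809 (1.22 ± 0.15). Aldh1l2 (1.54), Nupr1 (1.34), Gdf15 (1.27), Ddit3 (1.10), Atf5 (1.08) and Vldlr (1.04) were also called. The call of Aldh1l2 was lost in the fit of all 18 treated libraries (adjusted p = 0.014). None of these 10 genes overlapped between the groups, whereas 7 of the 9 called regeneration genes did. Over all genes tested 7.33% lay apart as higher, and 43 of the 97 called higher genes did. Atf4 itself had 2636, 3741 and 2373 against 3385, 4775 and 3697 (0.45 ± 0.12, adjusted p = 0.0512). Asns, the asparagine synthetase, had a log2 fold change of 0.50 (adjusted p = 0.0456). The cytosolic aminoacyl-tRNA synthetases, which ATF4 also drives, held 0 calls and 2 higher genes by the wider rule among 20 tested, Sars (0.53) and Cars (0.43).

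The bases upstream of called genes were searched for a planned set of short motifs. The composite element that ATF4 binds with C/EBP partners was searched as TGATGNAA, and the AP-1 element as TGANTCA, on both strands of the 250 bases before each RefSeq start (build GRCm38.p6). TGATGNAA was present for 4 of the 8 called ATF4 genes with a promoter in the RefSeq table (Chac1, Slc7a11, Nupr1 and Vldlr), for 7 of the 69 called higher genes with one (10.1%), for 2 of 71 called lower genes (2.82%), and for 2.47% of all tested genes with one. No entry was matched for Aldh1l2 and Slc7a3. Because these genes entered the list as known ATF4 targets, the match is a description. The 3 promoters with the element among the most changed of these genes are shown in the direction of transcription, with the element or its reverse complement in capitals.
Chac1, chr2:119350992-119351241, plus strand: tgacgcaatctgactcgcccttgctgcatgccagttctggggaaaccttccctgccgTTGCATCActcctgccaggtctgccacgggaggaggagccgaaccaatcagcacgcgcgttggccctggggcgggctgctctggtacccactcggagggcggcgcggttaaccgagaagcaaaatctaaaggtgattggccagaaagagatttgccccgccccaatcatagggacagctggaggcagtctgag
Slc7a11, chr3:50443614-50443863, minus strand: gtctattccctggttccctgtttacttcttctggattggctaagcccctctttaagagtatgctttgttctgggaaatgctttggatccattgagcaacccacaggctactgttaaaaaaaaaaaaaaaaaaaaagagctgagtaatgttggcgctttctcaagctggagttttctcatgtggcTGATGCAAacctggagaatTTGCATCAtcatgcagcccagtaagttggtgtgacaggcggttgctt
Nupr1, chr7:126625471-126625720, minus strand: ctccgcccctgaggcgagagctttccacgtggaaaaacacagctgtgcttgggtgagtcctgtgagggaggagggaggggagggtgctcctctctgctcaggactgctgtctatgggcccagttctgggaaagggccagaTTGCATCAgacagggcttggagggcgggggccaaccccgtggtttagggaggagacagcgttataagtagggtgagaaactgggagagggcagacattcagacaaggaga
The 2 matches upstream of Slc7a11 began 66 and 47 bases before the start, on opposite strands. TGANTCA was present for 9 of the 69 called higher genes (13.0%), 8 of the 71 called lower genes (11.3%) and 5.76% of all tested genes, so that its share was much the same in both directions. The antioxidant response element TGACNNNGC was present for 3 called higher (4.35%) and 4 called lower genes (5.63%), against 13.8% of tested genes. The TCF element CTTTGAT was present for 2 called higher (2.9%) and 0 called lower genes, against 2.78%. Each E2F, sterol and heat shock element was present for at most 1 called gene in either direction. Emp1, an epithelial membrane protein of the regeneration list, and F3 each held 2 matches, shown in capitals. A second start of Emp1 in the table had 0 matches and is not shown.
Emp1, chr6:135362681-135362930, plus strand: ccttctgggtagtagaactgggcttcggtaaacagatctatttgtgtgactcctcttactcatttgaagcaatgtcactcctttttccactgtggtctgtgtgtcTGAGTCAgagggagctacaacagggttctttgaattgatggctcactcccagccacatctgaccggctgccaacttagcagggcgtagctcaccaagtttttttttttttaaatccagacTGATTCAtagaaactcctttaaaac
F3, chr3:121723287-121723536, plus strand: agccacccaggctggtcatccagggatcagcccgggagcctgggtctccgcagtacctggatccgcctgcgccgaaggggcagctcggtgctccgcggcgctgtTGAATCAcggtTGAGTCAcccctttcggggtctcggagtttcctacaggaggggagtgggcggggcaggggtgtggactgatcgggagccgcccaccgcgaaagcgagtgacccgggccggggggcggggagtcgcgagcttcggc

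**Figure D3:**
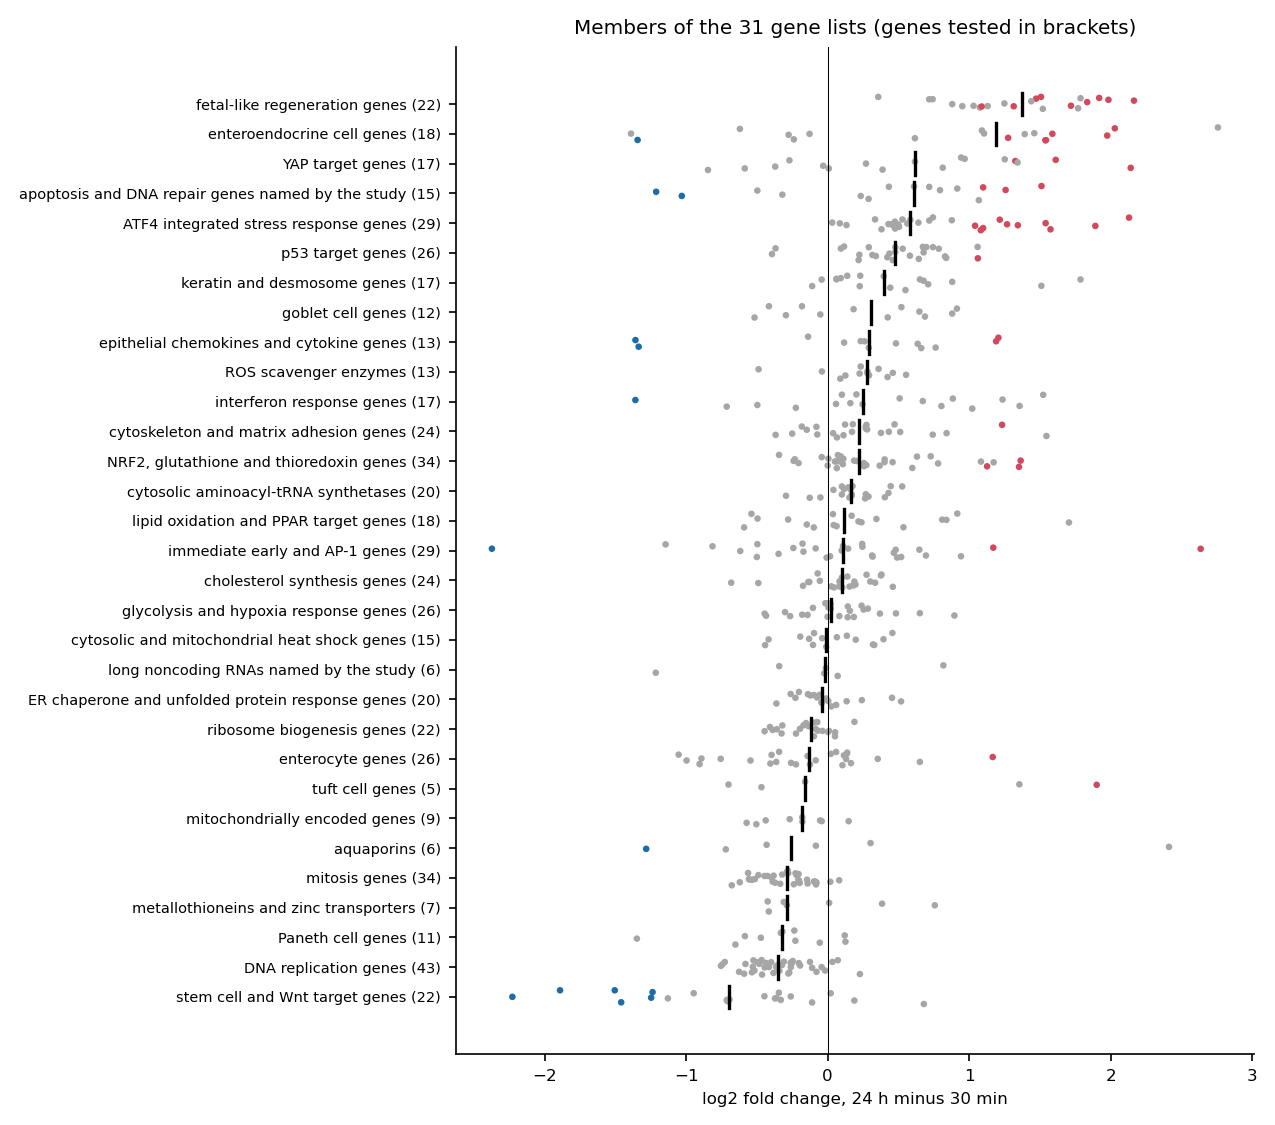
Log2 fold changes (horizontal axis, 24 h minus 30 min) of the tested members of 31 gene lists, 1 point per gene, ordered by the list median (black bar). Genes called lower are blue and genes called higher are red. The stem cell list has the lowest median, -0.70, and the fetal-like regeneration list the highest, 1.38.

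The calls among antioxidant genes were all higher. Of 34 genes of the NRF2, glutathione and thioredoxin list, 3 were called higher, where 0.549% of all genes were. The study named all 3 (Gch1, Ggh and Gstk1) as induced in these samples, and Hmox1, Ethe1 and Vnn1 too. Their counts are therefore no independent evidence of a direction. By the wider rule 9 were higher (list median 0.22), where 3.55% of all genes were. Without CD1 or without line 2, 5 were called. Gch1, which makes the cofactor tetrahydrobiopterin, had 412, 384 and 1261 against 1256, 1139 and 2386 (1.36 ± 0.16). Ggh, a folate hydrolase, and Gstk1, a glutathione transferase, had log2 fold changes of 1.35 and 1.13. Hmox1, the haem-degrading enzyme most used as a sign of oxidant stress, had 120, 116 and 273 against 264, 305 and 454 (1.08 ± 0.18, adjusted p = 0.0117), past the wider rule alone. Nqo1 had a log2 fold change of 0.19 (adjusted p = 0.29), and Srxn1 (0.26), Txnrd1 (0.11) and Gclm (-0.04) passed neither rule. None of the 13 tested superoxide dismutases, catalase, glutathione peroxidases and peroxiredoxins passed either rule, with values from -0.49 (Cat) to 0.55 (Gpx4).

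Targets of the p53 tumour suppressor held 1 call. Of 26 tested, the xylulose reductase Dcxr was called higher (1.06 ± 0.14), and 8 were higher by the wider rule (median 0.48). Over all genes tested 0.549% were called higher and 3.55% were higher by the wider rule. A positive log2 fold change was found for 24 of the 26 targets and for 7169 of all 17668 genes tested. Without CD1 no member of the list was called, and without WT2 there were 3. Ccng1, cyclin G1, had 5280, 5580 and 6110 at 30 min and 13717, 8469 and 14037 at 24 h, and missed the threshold narrowly (1.06 ± 0.16). Cdkn1a, the cell cycle inhibitor p21, had 2438, 3243 and 3049 against 4693, 5337 and 4522 (0.74 ± 0.12, adjusted p = 0.0113). For Ccng1 and Cdkn1a every 24 h value was above every 30 min value. Among 15 apoptosis and DNA repair genes that the study named from these samples, and which are therefore no independent evidence of a direction, Hmga2 (-1.21) and Usp49 (-1.03) were called lower and Ctsl (1.51), Capn2 (1.26) and Ddit3 (1.10) higher. Ctsl, the lysosomal protease cathepsin L, had 750, 897 and 1574 against 2512, 2302 and 4247. Usp49 had a log2 fold change of -0.96 without line 2, under the threshold.

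Several hormone cell genes rose, while the progenitor factor Neurog3 fell. Among 18 tested enteroendocrine genes, 6 were called higher and 1 lower, and 10 were higher and 1 lower by the wider rule (median 1.19). Over all genes tested 0.549% were called higher and 0.583% lower, and 3.55% were higher and 4.59% lower by the wider rule. Neurog3, the transcription factor of enteroendocrine progenitors, fell from 337, 386 and 201 to 115, 167 and 82, with 304 to 383 in the untreated libraries (-1.34 ± 0.17, adjusted p = 0.00459). Chga, chromogranin A of the secretory granules, had 218, 537 and 470 against 550, 1836 and 1356, with 294 to 776 untreated (1.54 ± 0.13, adjusted p = 0.0013). Chgb (1.54), the serotonin enzyme Tph1 (1.59), the tachykinin precursor Tac1 (1.98), somatostatin (Sst, 2.03) and Reg4 (1.28) were also called. Reg4 had 1021, 1971 and 1251 at 30 min and 2749, 4709 and 2763 at 24 h, with 1688 to 2292 untreated. Sst was low, at 23, 7 and 66 against 75, 48 and 234. In the fit of all 18 treated libraries the calls of Neurog3 (adjusted p = 0.0395) and Sst (adjusted p = 0.029) were lost. Not every hormone gene passed a rule, since Gcg, the glucagon precursor, had 7, 22 and 24 against 4, 14 and 46 and Gip, an incretin, had 211, 187 and 249 against 224, 250 and 635 (0.62 ± 0.23, adjusted p = 0.122). In bulk RNA, more cells of a type and more RNA per cell cannot be told apart.

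Among the other epithelial lineages, only the tuft cell and enterocyte lists held a call. Over all genes tested 0.583% were called lower and 0.549% higher, and by the wider rule 4.59% were lower and 3.55% higher. Of 11 Paneth and 12 goblet cell genes, 0 were called. By the wider rule the Paneth cell phospholipase Pla2g2a was lower (-1.35) and the goblet cell genes Zg16 (0.69), Tff3 (0.65) and Agr2 (0.52) were higher. Of the 12 goblet cell genes 7 had a positive and 5 a negative log2 fold change. Spdef (-0.52) and Atoh1 (-0.42) were among the 5 and passed neither rule. Of 5 tested tuft cell genes, Ptgs1, a prostaglandin synthase, was called higher, with 59, 35 and 148 against 256, 133 and 486 (1.90 ± 0.19). Avil (1.35) was higher by the wider rule. The other members, Pou2f3 (-0.70), Cd24a (-0.47) and Trpm5 (-0.16), had negative values and passed neither rule (list median -0.16). Dclk1, the usual tuft cell marker, was at 3 or below in all 6 libraries and was not tested. Leaving out any line gave 2 calls in the tuft cell list, and the goblet list had 2 without line 2. Of 26 enterocyte genes, adenosine deaminase Ada was called higher (1.17 ± 0.14) and Treh, trehalase, was lower by the wider rule (-0.997). The 26 genes had a median of -0.13, and 4 of them were called lower without WT2. In WT2 the median of the enterocyte genes was 0.23, in CD1 -0.31 and in line 2 -0.31.

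Signalling and barrier genes from the remaining lists were called in both directions. Over all genes tested 0.583% were called lower and 0.549% higher, and 4.59% were lower and 3.55% higher by the wider rule. Among 13 tested epithelial chemokines and cytokine genes, Ccl9 (-1.36 ± 0.16) and Ccl28 (-1.34 ± 0.18) were lower and Ccl20 (1.19 ± 0.12) and Cxcl16 (1.21 ± 0.16) higher. Ccl20, which attracts CCR6+ leukocytes, had 195, 168 and 1400 against 416, 397 and 3321, with 91 to 611 untreated, so that line 2 was above the other lines at both times. Ifitm3 was called lower among 17 interferon response genes (-1.36 ± 0.17), with 600, 780 and 231 against 198, 276 and 116, and that list held 2 calls without CD1 or without line 2. Aqp4, a water channel, was called lower (-1.28 ± 0.13), with 1103, 1857 and 887 against 372, 873 and 387. Aqp5, of the same family of 6 tested, was higher by the wider rule (2.41 ± 0.37), with 23, 3 and 111 against 283, 15 and 356. In the fit of all 18 treated libraries the calls of Ccl9 (adjusted p = 0.0712), Ccl28 (0.01), Ccl20 (0.0171), Ifitm3 (0.041) and Aqp4 (0.0181) were lost. Plaur, the urokinase receptor, was called higher (1.23 ± 0.14) among 24 cytoskeleton and adhesion genes, of which 3 were called without line 2. Of 17 keratin and desmosome genes 0 were called and 6 were higher by the wider rule, among them Dsg3 (1.79), Krt79 (1.51) and Krt7 (0.88), and leaving out a line called 1 or 2 of them.

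Several pathways held no call. These were cholesterol synthesis (24 genes, with Dhcr7 at -0.49 lower by the wider rule), lipid oxidation and PPAR targets (18 genes, with Pdk4 at 1.71, Cidec at 0.92 and Angptl4 at 0.84 among 4 that were higher by it), ribosome biogenesis (22 genes, of which Polr1a at -0.45 was the furthest from 0), endoplasmic reticulum chaperones (20 genes, with Dnajb9 at 0.52 higher by the wider rule), heat shock proteins (15 genes, from -0.44 for Bag3 to 0.46 for Hspa1a), glycolysis and hypoxia (26 genes, with Slc2a1 at 0.48), and metallothioneins and zinc transporters (7 genes, with Slc39a4 at 0.76). By the wider rule 4.59% of all genes tested were lower and 3.55% higher. Of 9 mitochondrially encoded genes, mt-Nd6 (-0.57) and mt-Nd4 (-0.44) were lower by the wider rule. Among 6 long noncoding RNAs that the study named from these samples, Kcnq1ot1 was lower by it (-1.21 ± 0.25), with 3032, 4502 and 3704 against 2357, 1779 and 963. Without line 2, 2 PPAR targets, 1 glycolysis gene and 1 of these RNAs were called, and without CD1 1 of these RNAs was.

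The genes with the largest changes outside these lists, among those whose groups did not overlap and whose mean was at least 50 in the higher group, came from several families. Afp, the fetal serum protein alpha-fetoprotein, rose most, from 11, 17 and 32 to 119, 215 and 324 (3.40 ± 0.23, adjusted p = 0.000964). The untreated libraries held 21 to 127 for Afp, so CD1 at 24 h lay inside their range. Gml2 (2.92) and Gml (2.57), of the Ly6 family of surface proteins, had at most 45 in any 30 min library. They lie beside Ly6a, Ly6d and Psca, which were called too, in 1 stretch of chromosome 15 (74714839-74998031, GRCm38). Lrp2, the endocytic receptor megalin, with 42, 9 and 29 against 254, 54 and 165, and Fam129a (2.18) and the granule protein Ptprn (2.03) complete the rises not yet named. Among the falls, the urea transporter Slc14a1 had 473, 477 and 81 against 69, 63 and 6 (-3.07 ± 0.23), and the matrix protein Prelp 99, 136 and 25 against 10, 18 and 2 (-3.05 ± 0.31). Rims4 (-2.81) and Gm32742 (-2.75) followed, and Dpysl5 was 5.65-fold lower. In the fit of all 18 treated libraries Rims4 (adjusted p = 0.0107) and Gm32742 (0.0123) were not called, and without WT2 Dpysl5 was not (0.0147). At the lowest of these levels the differences rest on few reads.

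Clca3b, of the calcium-activated chloride channel regulator family, was the most abundant member of a run of 6 called lower genes on chromosome 3 (144729677-144849357, GRCm38). It had 18017, 20345 and 15680 at 30 min and 3961, 5866 and 3261 at 24 h, with 17543 to 27190 untreated (-2.08 ± 0.14). Clca3a2 (-2.30) and Clca3a1 (-1.41) were called beside it, as were Gm43240, Gm17743 (-2.77) and Gm16215 (-2.33). Gm16215 lies within Clca3b and Gm43240 overlaps Clca3a2, both on the opposite strand, and the strand setting of the counting is not given in the sources used here, so their reads cannot be told apart from those of their partners. A second run of 5 called lower genes on chromosome 7 (105823264-106093337) held the pseudogene 9130208D14Rik, with 26879, 23663 and 13280 against 5814, 7085 and 2248, and the antisense gene Gm20663 (-2.39), which overlaps other called genes and was not called in the fit of all 18 treated libraries (adjusted p = 0.0242). Near-identical copies in both runs may share reads, so the split between their members is uncertain.

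For most called genes the 24 h values lay outside the untreated range while the 30 min values overlapped it. These genes were chosen for a difference between 24 h and 30 min, and the share over all genes tested was not counted. For 75 of the 97 higher genes all 24 h values were above all 4 untreated values, while the 30 min values overlapped the untreated range in 89. For the 103 lower genes, with 24 h values below all untreated values, the numbers were 95 and 87. Both held together for 67 of the higher and 80 of the lower genes. The 30 min median lay between the untreated and the 24 h median in 66 of the 97 higher and 72 of the 103 lower genes. By the group medians, 3 called genes were nearer to untreated at 24 h than at 30 min, namely Fosb, Ccl20 and Reg4.

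The lines differed in level and, for some lists, in direction. The goblet cell list, for example, had a median of 0.47 in CD1, 0.48 in WT2 and -0.23 in line 2. Across 11817 genes with a mean value of at least 100, which are not independent replicates, the log2 fold changes of CD1 and WT2 had a Pearson correlation of 0.717, those of CD1 and line 2 of 0.669 and those of WT2 and line 2 of 0.451. Line 2 had the highest value of the 3 lines in 80 of the 97 higher genes at 30 min and in 77 at 24 h. For the 103 lower genes line 2 was the lowest in 93 and 91, and WT2 the highest in 83 and 82. The untreated libraries did not show the same order. Among the 4 of them, line 2 was the lowest in 27 of the 103 lower genes, and WT2 was the highest in 4 and the lowest in 44, while line 2 was the highest in 37 of the 97 higher genes and line 1 in 53. The order of the 3 lines was the same at both times in 70.1% of the higher and 69.9% of the lower genes, and in 27% of the 11817 genes. The highest and lowest line at 30 min differed by a median of 1.503 on the log2 scale in the higher genes, 0.94 in the lower genes and 0.29 in the 11817 genes. Line 2 differs from the other lines in sex and passage, and these cannot be told apart.

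**Figure D4:**
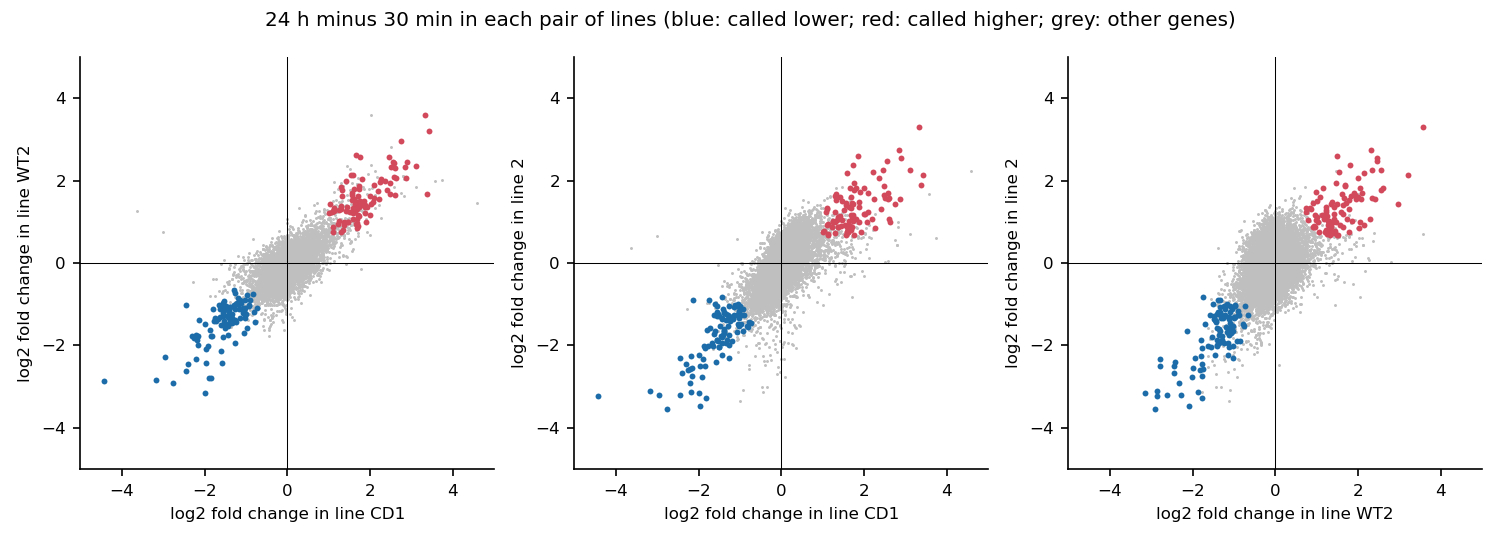
Log2 fold change (24 h minus 30 min) in 1 organoid line against that in another, for each pair of lines, over genes with a mean value of at least 100 (grey) and the genes called lower (blue) and higher (red). All called genes lie in the lower left or upper right quadrant, which their selection over these same lines favours. The cloud is narrowest for CD1 and WT2, where r was 0.717.

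Gene length moved with the result. In the shortest of 4 equal bins of protein-coding genes by exonic length the median log2 fold change was 0.12, and in the longest bin it was -0.18. The gradient was from 0.29 to -0.32 in line 2, from 0.14 to -0.10 in CD1 and from -0.04 to -0.14 in WT2. Called higher genes numbered 51 in the shortest and 9 in the longest bin, and called lower genes 8 and 34. With each library's trend over length removed, an alternative chosen after seeing the data, 117 genes were lower and 252 higher, and 187 of the 200 calls were kept in direction. The stem cell list then held 6 lower calls, the ATF4 list 10 higher, the regeneration list 17, the YAP list 5 and the enteroendocrine list 9 higher and 1 lower, while Usp49 was no longer past the threshold. The DNA replication and mitosis medians became -0.26 and -0.19.

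**Figure D5:**
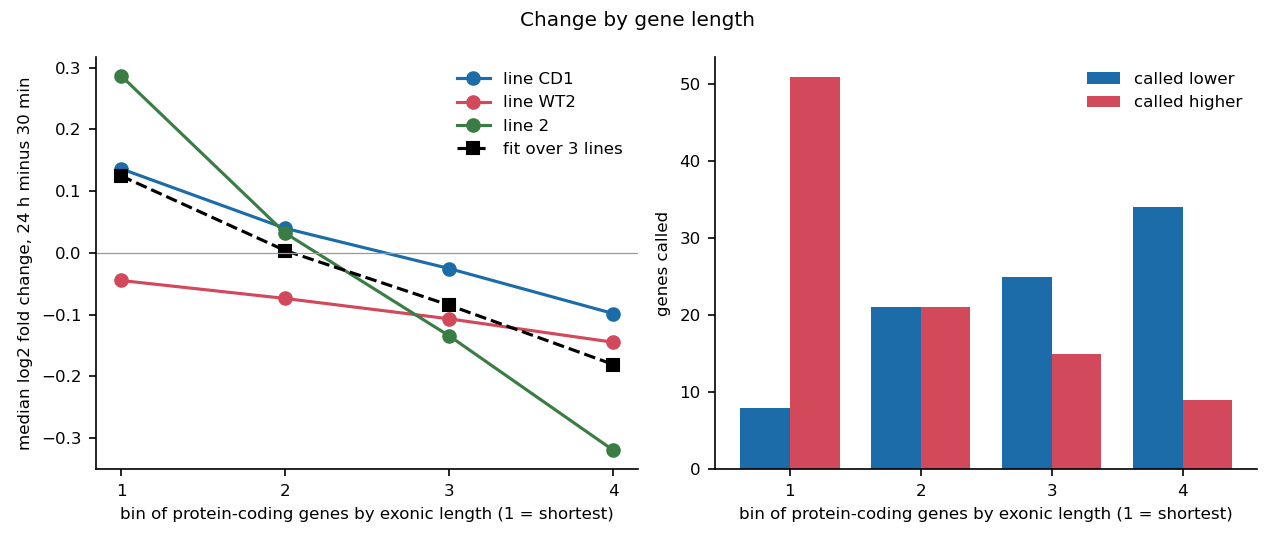
Left, median log2 fold change (24 h minus 30 min) of protein-coding genes in 4 equal bins of exonic length, for each line and for the fit over the 3 lines. Right, number of genes called lower and higher in each bin. The medians fall with length in every line, and most in line 2, from 0.29 to -0.32.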

How the data were processed

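Total RNA was sequenced as paired-end reads of 100 bases after Ovation SoLo library preparation, per the labels (the study's methods also name NEBNext). The submitters' processing notes name Trimmomatic 0.36, STAR 2.5.3a, HTSeq 0.9.1 and GRCm38. Each value the authors deposited is a score, named CP20M in the study, made from counts per gene that they scaled to 20 M a library and rounded up. As far as the values show, gene length was not divided out. Raw counts were not used here, so no test for counts was run.

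The members and gene lists were chosen with earlier results of these data known. Several lists hold genes that the study named from these samples. Among them are Lgr5, Olfm4, Smoc2 and Axin2, Ly6a, Areg, Ptgs2 and Clu, and Chac1, Slc7a11, Nupr1 and Ddit3. Counts of such members are no independent evidence of a direction. The 6 libraries were fitted with limma 3.58.1 in R 4.3.3 on log2(value + 1), with the organoid line as a block and a trended prior, over the 17668 of 52636 genes that reached a value of 10 in 3 or more libraries. The threshold is the one given with the first counts. Libraries of a line come from the same mouse, and after removal of group means their correlation was 0.296 for CD1, 0.544 for WT2 and 0.517 for line 2, so they were paired. P-values and SEs use a moderated variance, with 2 residual degrees of freedom from the 3 lines and 6.42 from the prior. The prior, taken from genes of similar level, thus weighed more than the spread among the 3 lines. A two-sided exact sign-flip test of 3 pairs cannot go below 0.25. On simulated data of this comparison (17236 genes tested), 49 of 100 genes changed by 1.5 on the log2 scale and 82 of 100 changed by 2.5 were found, with 0 false calls. The simulated noise was independent between genes and held no shared trend, such as that with gene length. The simulation therefore cannot show how many calls in the real data are false.

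The genes named are the 10 largest falls and 10 largest rises past the threshold whose groups did not overlap and whose mean was at least 50 in the higher group, and up to 4 called genes per direction from each of 31 lists (where none was called, up to 3 with an adjusted p under 0.05, or otherwise the 2 largest changes). Other list members are additions made after their values were seen. Alternatives were the fit without the line block, all 18 treated libraries in one fit, quantile normalization, a pseudocount of 10, no filter, an adjusted p under 0.05 alone, leaving out each line, and removal of the length trend (lowess, span 0.3).

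Reads per library were estimated from the spacing of low values, with an error of at most 0.113% in 7 simulated libraries, and counting error is large for values near the filter. Gene positions and lengths are from GENCODE vM21 (GRCm38), where 99.6% of the deposited Ensembl identifiers were found. Promoters are from RefSeq (GRCm38.p6), with an entry for 69 of the 97 higher and 71 of the 103 lower genes. Figures were drawn with matplotlib 3.10.9 in Python 3.11.15. Indirect CAP and plasma-activated medium are not analysed here. A few genes the rule selected are not reported.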

Additional observations from a re-analysis of the deposited data

Results flagged for a closer look

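Among the untreated libraries of the 21 genes whose untreated range is given, 1 library lay far from the other 3 for 5 genes. The highest untreated value was 5951 for Axin2, with 4158 to 4349 in the others, 56 for Fosb, with 10 to 16, 127 for Afp, with 21 to 37, and 11723 for Mki67, with 8402 to 8959. The lowest untreated value was 1688 for Reg4, with 2208 to 2292 in the others. Such a flag is raised by chance in about 1 of 20 groups, and no untreated library entered a test.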

How the results depend on the processing

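Against 200 calls, the fit without the line block (no replicate block) gave 0 and the fit with no filter on low values 0 among 32662 genes tested, with 3774 and 5605 at an unadjusted p under 0.05. All 18 treated libraries in one fit gave 466 calls (151 of the 200 kept in direction), an adjusted p under 0.05 alone gave 1439, and removal of the length trend, chosen after seeing the data, 369. Leaving out a line gave 374 to 725 calls, of which 185 to 188 were among the 200. Quantile normalization gave 239 (189 kept) and a pseudocount of 10 gave 223 (197 kept). The higher share of calls was 48.5%, against 60.3% with quantile normalization and 68.3% with the length trend removed. Of 88 genes named by rule, 56 were no longer past the threshold without the block or the filter, and 14 in the fit of 18 libraries. The cause of these differences was not tested. None changed sign under an alternative in which it was tested (86 or 87 of the 88 when a line was left out). A list median changed sign in 12 pairs of list and alternative, in lists with medians from -0.16 to 0.12. A fit without one line leaves 1 residual degree of freedom and rests on the prior.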

Other observations

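Some families outside the lists were looked at after their values were seen, so they carry no test of their own. Over all genes tested 0.583% were called lower and 0.549% higher, and 4.59% were lower and 3.55% higher by the wider rule. Of 10 urea cycle and ornithine genes tested, 3 were called lower and 0 higher. Cps1, the mitochondrial enzyme that starts the urea cycle, had 27773, 34759 and 16706 at 30 min and 8884, 17148 and 4147 at 24 h (-1.56 ± 0.19), Otc fell by 1.19 and Oat by 1.02 on the log2 scale, whereas Ass1 (0.50) and Asl (0.28) passed neither rule. Of 12 annexins, 3 were called higher and 7 were higher by the wider rule, with Anxa10 at 2339, 2036 and 8042 against 6992, 5171 and 14740 (1.27 ± 0.15).

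Plat, tissue plasminogen activator, was called higher, with 108, 95 and 248 against 403, 247 and 691 (1.58 ± 0.17). Of 5 tested ligands of the EGF receptor, Areg and Btc were called higher, where 0.549% of all genes tested were. Btc had 342, 473 and 971 against 1400, 1268 and 2205 (1.54 ± 0.17), whereas Tgfa (0.32) and Hbegf (0.36) passed neither rule.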
